A study of Solanum lycopersicum with 27 samples.

Results

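Chilling at 4°C set shoots of tomato seedlings apart from their 24°C controls by a wider margin after 3 h than after 30 min, and the genes described here are judged by how far that margin changed. For each nuclear gene the difference between 4°C and 24°C was taken at each time on the scale of log2(normalized count + 1), and the value at 30 min was subtracted from the value at 3 h. A positive result, called higher below, means that 4°C shoots stood further above (or less far below) their controls at 3 h than at 30 min, and a negative one, called lower, means the opposite. The contrast used 12 of the 27 libraries of the series, 3 in each of 4 groups, and covered 20368 nuclear genes of 20535 features tested in shoots.

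All plants were of the M82 variety, 18 days old and grown in hydroponics, and each library was made from the pooled shoots of 4 seedlings. They were moved 2.5 h after lights came on, either to medium chilled to 4°C or to a control at 24°C, and shoots were taken 30 min or 3 h later. The 30 min libraries were sequenced in 1 batch and the 3 h libraries in another, each together with its own 24°C controls and its own 3 libraries from before the transfer (T0). Time and batch therefore cannot be told apart, but each cold difference was formed within a batch. Since the labels do not say that libraries came from separate growths, p-values measure the spread between these pools.

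Plants keep time with a circadian clock in which morning genes of the CCA1/LHY and REVEILLE (RVE) family and evening genes such as GIGANTEA (GI) and the PSEUDO-RESPONSE REGULATORs (PRR) act on each other, so that many transcripts move through the morning without any stress. Cold is read by a second set of regulators, of which the CBF transcription factors are the best known, and tomato has them although it is sensitive to chilling. A difference between 4°C and 24°C can therefore widen because the chilled shoots move, because the control shoots move, or both.

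The organ was checked by its plastid transcripts: rbcL, for the large subunit of Rubisco, lay between 468 and 35060 in shoot libraries against 79.0 to 155 in roots, and psbA, of photosystem II, between 575 and 38867 against 39.5 to 112. Shoots and roots were normalized apart, so these levels are a description. Plastid transcripts of chilled shoots made up 4.96 ± 1.16% of all values after 30 min and 6.74 ± 0.022% after 3 h (SD, n = 3), and those of the controls 0.423 ± 0.211% and 0.284 ± 0.036%. The T0 libraries had 2.18 ± 0.134% in the 30 min batch and 0.503 ± 0.186% in the 3 h batch, so the batches differed before treatment. The controls lay below their own T0 at each time. In the 30 min 4°C group, replicate 2 had the highest share, 6.28%. The share was higher in 4°C at both times, and its part in the results below was not tested.

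The cold difference changed between 30 min and 3 h in 2382 nuclear genes, 11.7% of those tested, at a Benjamini-Hochberg adjusted p under 0.01 in limma. It was higher at 3 h in 796 genes (3.91%) and lower in 1586 (7.79%). Of the called genes, 524 higher and 682 lower ones changed at least 2-fold, and 223 and 178 at least 4-fold. The median over all nuclear genes was itself shifted, by -0.20 on the log2 scale (-0.07 at 30 min and -0.28 at 3 h). When libraries were rescaled so that this median was 0, 1226 genes were higher and 697 lower, so the excess of lower calls turned into an excess of higher ones. In all, 1492 genes were called with both scalings, each in the same direction, among them 795 of the 796 higher genes and 697 of the 1586 lower ones. Leaving out replicate 1 of the 3 h 4°C group left 1039 lower calls.

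Most of these genes had a small cold difference at 30 min. The difference was under 1.5-fold at that time in 508 higher genes (63.8%) and in 1418 lower genes (89.4%), and the median went from 0.10 at 30 min to 1.40 at 3 h in the higher genes and from -0.08 to -0.96 in the lower genes. Over all nuclear genes, 1218 were at least 2-fold apart at 30 min and 3654 at 3 h. The SD of the cold difference over these genes was 0.51 in log2 at 30 min and 0.95 at 3 h. How many of all genes were under 1.5-fold at 30 min was not counted. The shares under 1.5-fold are therefore a description and do not set the called genes apart from the rest. By group means, the difference kept its sign and grew in 482 higher and 1029 lower genes, shrank in 22 and 5, and changed sign in 292 and 552. In only 47 higher and 53 lower genes was it at least 1.5-fold on both sides of that change of sign. The plot of the differences at both times shows this spread along the axis of the later time.

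**Figure D1:**
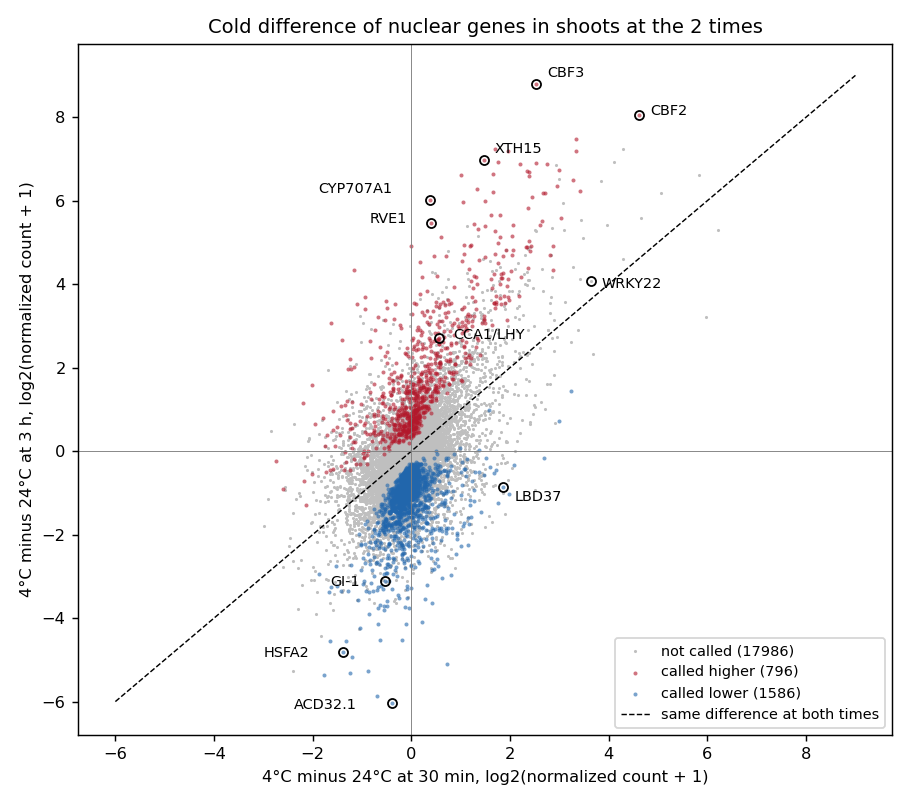
Difference between 4°C and 24°C of each nuclear gene at 30 min (horizontal) and at 3 h (vertical), both as log2(normalized count + 1). Red points are the 796 genes called higher, blue points the 1586 called lower and grey points the rest, and the dashed line marks an equal difference at both times; most coloured points lie near 0 on the horizontal axis.

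The 4 groups were then set against their own T0 to see which arm had moved between the times. In the higher genes the 24°C arm had the larger change: its median was -1.0, against 0.25 for the 4°C arm. A 2-fold move was seen in the 24°C arm alone in 317 higher genes (39.8%), in the 4°C arm alone in 82, in both in 82 and in neither in 315. Where the 24°C arm moved 2-fold it went down in 398 of these genes and up in 1. In the lower genes the arms were more even, with medians of 0.49 at 24°C and -0.37 at 4°C, and 243 genes moved 2-fold at 24°C alone, 272 at 4°C alone, 37 in both and 1034 in neither. For comparison, 12.4% of all nuclear genes moved 2-fold in the 24°C arm and 11.3% in the 4°C arm, whether alone or with the other arm. The medians of the arms over all nuclear genes were 0.07 and -0.13. Called genes were selected for a difference between the arms, so more moves among them are built in. The arms were not computed on rescaled values, with which 697 of the 1586 lower genes stayed called. These classes are a description, and the change between the T0 groups of the batches is part of each arm, though not of the contrast itself.

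**Figure D2:**
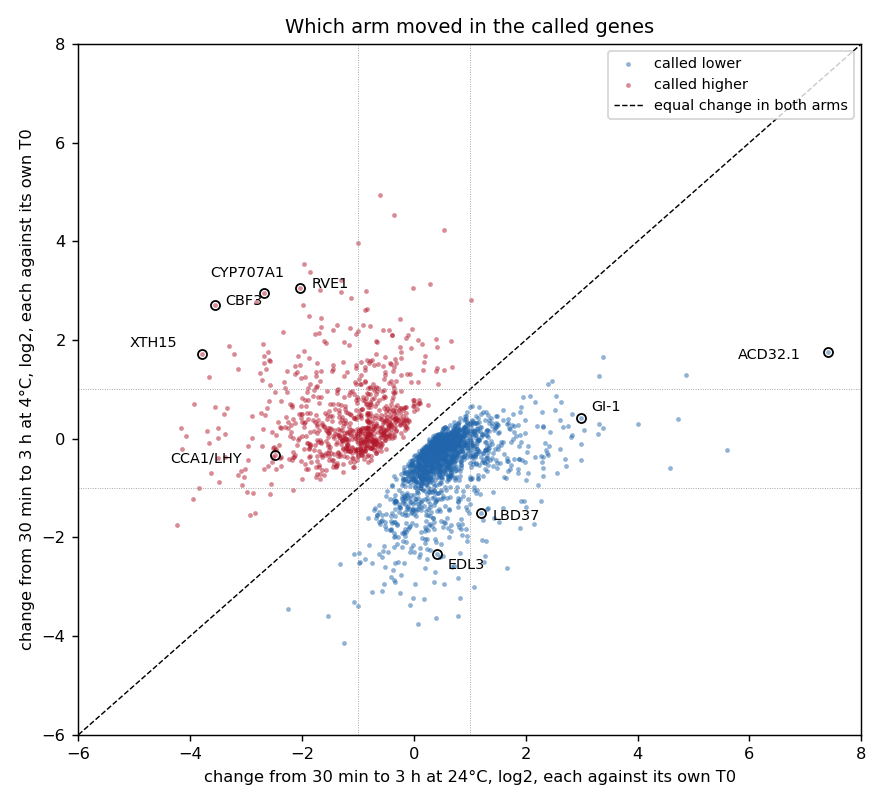
Change from 30 min to 3 h at 24°C (horizontal) and at 4°C (vertical) in log2, each time against the T0 libraries of its own batch, for the called genes. Higher genes (red) lie above the dashed line of equal change and mostly to the left, where the 24°C arm went down, and lower genes (blue) lie below it; dotted lines mark 2-fold.

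Of the 5 CBF and DREB1 genes, which encode AP2/ERF factors that switch on cold-regulated genes, 3 were higher and 0 lower in limma under either scaling, and 0 were lower at an unadjusted p under 0.05. CBF3 (Solyc03g026280) had the highest change of all named genes. Its normalized counts were 537, 322 and 315 at 30 min in 4°C and 66.9, 78.8 and 52.0 in 24°C, and 3098, 3067 and 3589 at 3 h in 4°C against 11.9, 9.57 and 1.89 in 24°C. The groups did not overlap at either time, and both arms moved apart: the change was 6.26 ± 0.69 (SE; adjusted p = 3.9e-06), with -3.56 in the 24°C arm and 2.7 in the 4°C arm.

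CBF2 (Solyc03g124110) went from 212, 157 and 93.4 at 30 min to 369.6, 319 and 402 at 3 h in 4°C. Its controls were 8.72, 2.23 and 5.91 and then 1.44, 0.044 and 0.027. CBF1 (Solyc03g026270) was not above its early level in the cold, with 107, 90.0 and 56.5 at 30 min and 70.5, 43.3 and 62.4 at 3 h in 4°C, while its controls went from 11.6, 14.7 and 11.7 to the same near-zero values as those of CBF2. The changes were 3.43 ± 0.75 for CBF2 (adjusted p = 0.0032) and 2.81 ± 0.64 for CBF1 (adjusted p = 0.0041), and they depend on how such low controls are treated: with 5 in place of 1 added before taking logs, neither was called. The call of CBF2 was lost without 30 min 24°C replicate 1, 30 min 4°C replicate 3, or 3 h 24°C replicate 2 or 3, at adjusted p from 0.0101 to 0.0108. That of CBF1 was lost without 30 min 24°C replicate 2, 30 min 4°C replicate 3, 3 h 24°C replicate 2 or 3, or 3 h 4°C replicate 1 or 3, at adjusted p from 0.0109 to 0.0139. DREB1D (Solyc08g007820) and DDF1 (Solyc08g007830) were not called, at 1.86 ± 0.54 and 2.19 ± 0.97 (adjusted p = 0.020 and 0.11). CBF1 and CBF3 have neighbouring IDs, and reads that fit more than 1 of these related genes may have been split between them.

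Of 16 clock genes tested, 10 were called, 6 higher and 4 lower, or 6 and 3 after rescaling. The higher ones were morning genes and PRR9, the lower ones GI-1, GI-2, PRR7 and ELF3. RVE1 (Solyc02g036370), a MYB-like factor of the REVEILLE family, was at 292, 344 and 297 in 4°C and 227, 225 and 259.6 in 24°C at 30 min. By 3 h it was at 2432, 3007 and 2659.9 in 4°C and 75.7, 57.7 and 48.1 in 24°C, so that the controls lay below their 30 min level and the chilled shoots above theirs. The change was 5.09 ± 0.20 (adjusted p = 2.5e-11).

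CCA1/LHY (Solyc10g005080), the central morning factor, was at similar levels in the cold, with 3643, 3631 and 3662 at 30 min and 3275, 3219 and 3645 at 3 h, while the controls went from 2522, 2358 and 2582 to 561, 508 and 489. Its change of 2.15 ± 0.09 (adjusted p = 2.9e-11) came with -2.48 in the 24°C arm and -0.33 in the 4°C arm. RVE8 (Solyc10g084370), which activates evening genes in Arabidopsis, had the same form, at 2.34 ± 0.14 with -2.52 at 24°C and -0.18 at 4°C. RVE6 (Solyc01g095030) was smaller, at 0.84 ± 0.13. RVE7 (Solyc03g098320) was called at 0.88 ± 0.21, and leaving out any 1 of 8 libraries ended the call (at 30 min replicates 1 and 3 in 24°C and 1 and 2 in 4°C, at 3 h replicates 1 and 3 in 24°C and 2 and 3 in 4°C), with adjusted p from 0.0105 to 0.0174. PRR9 (Solyc10g005030), a repressor of CCA1 and LHY in Arabidopsis, differed from these in its arms: the controls were at 1448, 1368 and 1677 and then 1595, 1529 and 1750.0, and the chilled shoots at 1552, 1332 and 1361 and then 3445, 4196 and 4369, a change of 1.37 ± 0.15.

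The lower clock genes mirrored CCA1/LHY. GI-1 (Solyc04g071990), a photoperiod and clock gene, was at 588, 751 and 864 in 24°C at 30 min and at 5049, 4966 and 5528 at 3 h, whereas the chilled shoots had 493, 499 and 503 and then 611, 611 and 582. The change was -2.56 ± 0.14 (adjusted p = 9.6e-10), with 2.99 in the 24°C arm and 0.42 in the 4°C arm. GI-2 (Solyc12g056650) had -1.95 ± 0.12 and PRR7 (Solyc10g086000), another repressor of CCA1 and LHY in Arabidopsis, -1.41 ± 0.12. ELF3 (Solyc08g065870), part of the evening complex, was called at -1.12 ± 0.26 (adjusted p = 0.0045) but not after rescaling (adjusted p = 0.020), nor without 30 min 24°C replicate 1, any 3 h 24°C replicate, or 3 h 4°C replicate 1 or 3 (adjusted p from 0.0107 to 0.0140).

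Not every evening gene was called. PRR5 (Solyc03g081240) had changes of the arms in the same direction, 3.32 at 24°C and 3.42 at 4°C, and its change was 0.09 ± 0.40 (95% interval -0.76 to 0.94). FKF1 (Solyc01g005300), a light-sensing F-box protein, had arms of 3.48 and 3.81 and an interval of -0.59 to 1.24. TOC1 (Solyc03g115770), ELF4 (Solyc06g051680) and both LUX genes (Solyc06g005680 and Solyc06g076350) had values from -0.97 to -0.48, none of them called. Their 95% intervals were wide, in that order -2.04 to 0.10, -2.19 to 0.77, -2.60 to 0.99 and -1.33 to 0.36. None of these excludes a change as large as that of ELF3, at -1.12.

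**Figure D3:**
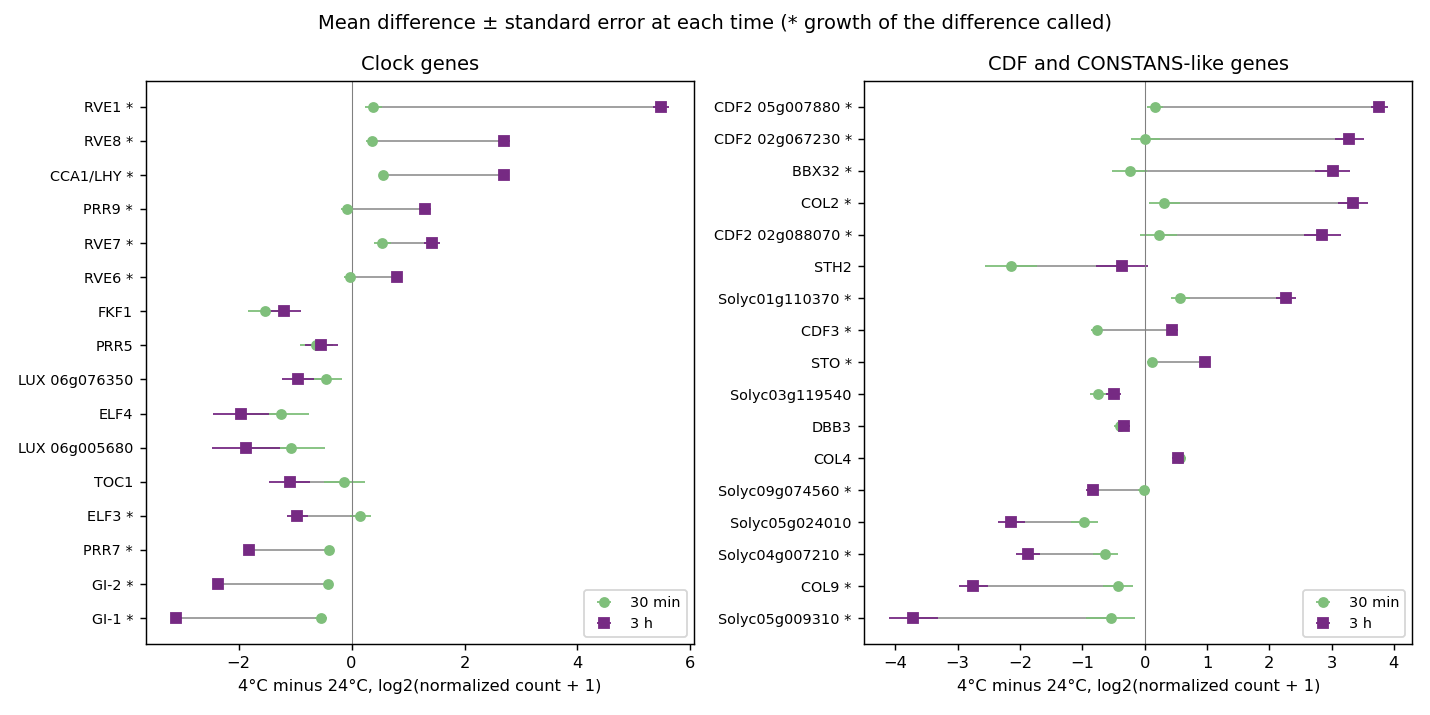
Difference between 4°C and 24°C in log2(normalized count + 1) at 30 min (green circles) and 3 h (purple squares) with standard errors (3 libraries a group), for 16 clock genes and 17 CDF and CONSTANS-like genes. Stars mark genes whose difference changed; RVE1 moved furthest to the right, from 0.39 to 5.48, and GI-1 furthest to the left among clock genes, from -0.54 to -3.10.

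CDF and CONSTANS-like genes carry clock output to flowering time and light responses, and of 17 tested 8 were higher and 4 lower, the same counts after rescaling. All 3 genes named CDF2, for Dof factors that repress CONSTANS and FT in Arabidopsis, were higher. For CDF2 (Solyc05g007880) the values were 222, 165 and 191 in 4°C and 155, 182 and 176 in 24°C at 30 min, and 1014, 1079 and 1145 and 84.3, 77.3 and 73.6 at 3 h. The groups overlapped at 30 min and lay far apart at 3 h, and the change was 3.60 ± 0.19 (adjusted p = 5.7e-10). The others (Solyc02g067230 and Solyc02g088070) changed by 3.28 ± 0.33 and 2.63 ± 0.41. COL2 (Solyc02g089540), a CONSTANS-like gene, changed by 3.03 ± 0.35 and BBX32 (Solyc06g063280), a B-box protein, by 3.26 ± 0.40, again from small differences of 0.32 and -0.24 at 30 min.

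In CDF3 (Solyc03g115940) the cold difference changed sign, from -0.77 to 0.44, a change of 1.22 ± 0.12. On the lower side, COL9 (Solyc12g006240), which delays flowering in Arabidopsis, went from 51.4, 75.7 and 79.6 in the controls at 30 min to 402, 438 and 396 at 3 h and from 34.2, 66.6 and 55.1 to 56.3, 63.9 and 61.1 in the cold, a change of -2.32 ± 0.33 (adjusted p = 7.4e-05). The unnamed Solyc05g009310 had the same form and -3.16 ± 0.55. COL4 (Solyc12g096500) had nearly the same cold difference at both times, 0.57 and 0.53, and its change of -0.03 ± 0.13 was not called and was of positive sign after rescaling.

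Of 14 cell wall genes tested, 9 were higher and 1 lower under either scaling, with a median change of 3.63 (-0.20 over all genes). The list was taken from the paper's text and tables on these same data, so the gap between these medians is no evidence about it. Xyloglucan endotransglucosylase/hydrolases (XTH) cut and rejoin xyloglucan, and EXORDIUM (EXO) proteins are tied to growth in response to brassinosteroids in Arabidopsis. XTH15 (Solyc07g056000) was at 1214, 911 and 867 in 4°C and 398, 435 and 261 in 24°C at 30 min, and at 5889, 5183 and 4524 and 45.1, 32.0 and 44.4 at 3 h. The groups were apart at both times and the gap widened, by 5.51 ± 0.46 (adjusted p = 1.4e-07), with -3.80 in the 24°C arm and 1.71 in the 4°C arm. The genes named XTH23 (Solyc03g093080, Solyc03g093110, Solyc03g093120 and Solyc03g093130) changed by 4.05, 5.18, 4.56 and 3.74, and the genes named EXO (Solyc04g074420, Solyc04g074430 and Solyc04g074440) by 4.18, 3.52 and 4.94.

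The IDs within each of these sets are close to one another, and reads shared between near copies may have been split among them, so their values are not independent. More widely, 21.2% of the higher genes had a neighbouring gene that was also higher, where 7.57% of all tested genes had one. For the lower genes the shares were 17.8% and 14.9%. EXLA1 (Solyc01g112000), an expansin-like gene, changed by 2.35 ± 0.20, and XTH32 (Solyc11g066270) was the lower member, at -2.16 ± 0.41.

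**Figure D4:**
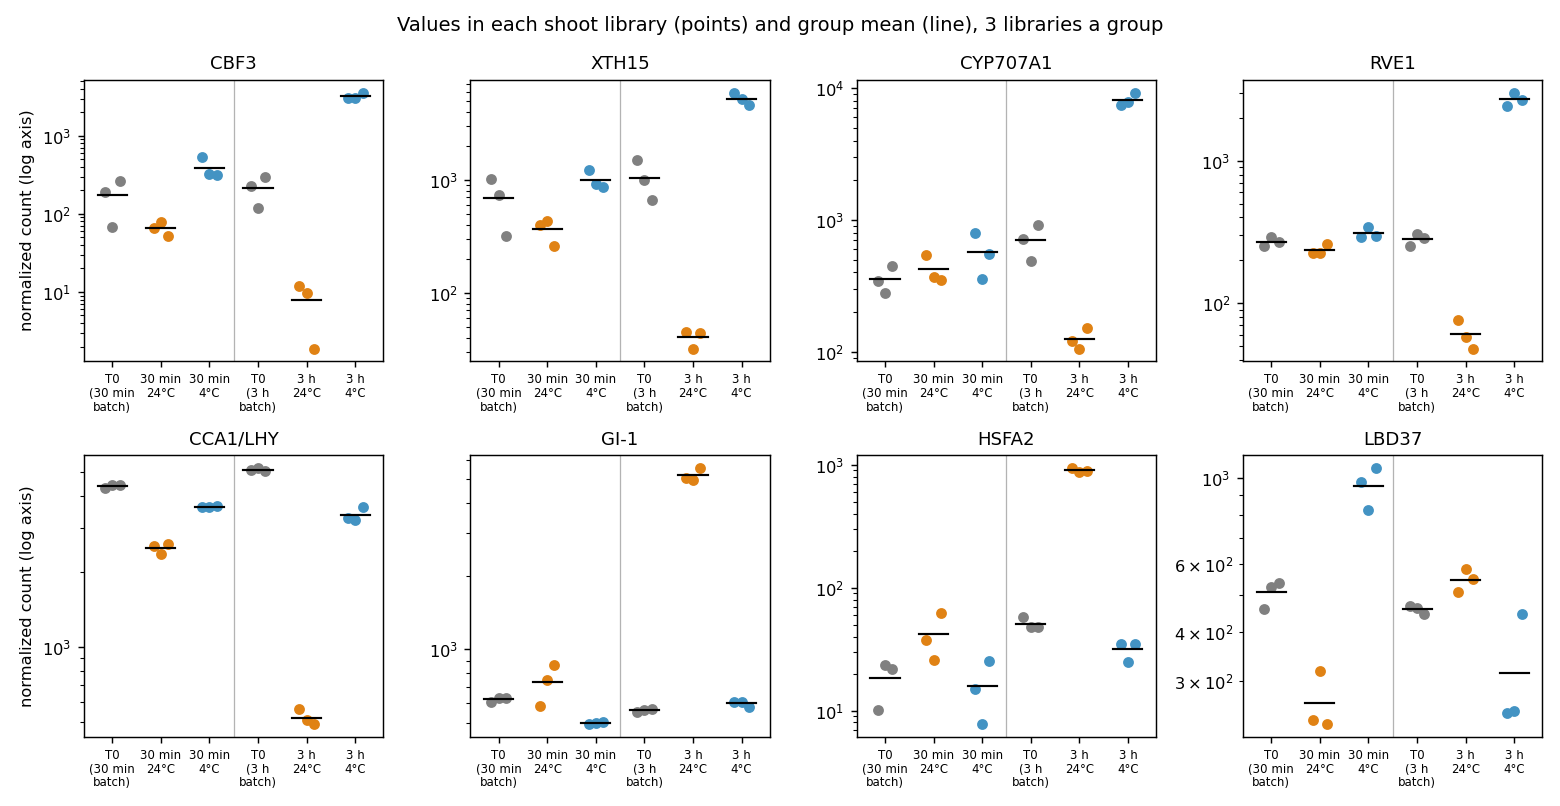
Normalized counts (log axis) of 8 genes in each of the 18 shoot libraries used in the fit, with a line at each group mean; grey is T0, orange 24°C and blue 4°C, and the left side of each panel is the 30 min batch. The orange points drop between 30 min and 3 h for CBF3, XTH15, CYP707A1, RVE1 and CCA1/LHY and climb for GI-1, HSFA2 and LBD37.

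Zinc finger and MYB15 genes that are known from early stress responses were higher in 7 of 12 cases and lower in 0 under either scaling (limma), with 0 lower at an unadjusted p under 0.05. ZAT10 (Solyc12g088390), a C2H2 repressor of the stress response, was at 36.2, 42.3 and 71.0 in 4°C and 23.3, 40.6 and 13 in 24°C at 30 min, where the groups overlapped. At 3 h it was at 510.1, 533 and 385 against 5.99, 2.01 and 4.33, a change of 5.6 ± 0.75 (adjusted p = 3.2e-05). A second ZAT10 (Solyc04g077980) already stood 2.67 above its controls at 30 min and changed by 3.52 ± 0.20. AZF3 (Solyc12g088400) changed by 4.29 ± 0.75, ZAT12 (Solyc06g075780) by 2.97 ± 0.43 and MYB15 (Solyc03g005570), a repressor of CBF genes in Arabidopsis, by 2.04 ± 0.39. The pair named CZF1 (Solyc05g052550 and Solyc05g052570) changed by 2.42 ± 0.18 and 2.33 ± 0.18. Another gene named MYB15 (Solyc03g093890) and MYB13 (Solyc06g083900) had negative values, -1.22 ± 0.68 and -1.42 ± 0.95, and were not called.

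Ethylene response factors outside the CBF branch were higher in 18 and lower in 5 of 48 tested, or 19 and 3 after rescaling. The gene with the highest value among those above 0 in all groups was the unnamed Solyc03g093540, with 293, 253 and 483 in 4°C and 81.5, 119 and 37.2 in 24°C at 30 min and 2905, 3080.3 and 2958 and 26.4, 26.1 and 20.4 at 3 h. Its change was 4.70 ± 0.41 (adjusted p = 2.0e-07), and the nearby Solyc03g093550, Solyc03g093560 and ERF-1 (Solyc03g093610) changed by 2.39, 3.47 and 2.94. The repressors ERF3 (Solyc10g006130) and ERF4 (Solyc07g053740) were already apart at 30 min, by 1.80 and 1.96, and reached 4.00 and 3.70 at 3 h. RRTF1 (Solyc10g050970), a factor of redox responses, is listed at 0 in every 3 h 24°C library, with 139, 126 and 96.1 in 4°C, so no fold is given. Its call (adjusted p = 0.0081) was lost after rescaling (adjusted p = 0.011), with 5 added before taking logs (adjusted p = 0.068), with robust moderation (adjusted p = 0.0138) and on leaving out any treated library other than replicate 2 of either 30 min group (adjusted p from 0.0119 to 0.0254). On the lower side were RAP2.4 (Solyc12g056980) at -2.60 ± 0.30 and TINY2 (Solyc03g120840) at -2.47 ± 0.39, while other genes with those names, Solyc04g072900 and Solyc12g008350, were higher, at 1.11 ± 0.23 and 2.28 ± 0.36.

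WRKY factors act in defence and stress, and of 26 tested 5 were higher and 1 lower (8 and 1 after rescaling). Among the higher ones, the calls of WRKY70 (Solyc03g095770) and of the genes named WRKY51 (Solyc04g051690 and Solyc08g062490) were lost on leaving out certain single libraries. The adjusted p (limma) then reached 0.028, 0.029 and 0.011 in that order. The median cold difference of the list was 1.14 at 30 min. WRKY33 (Solyc09g014990) changed by 1.88 ± 0.37, and the lower member, WRKY49 (Solyc09g010960), changed by -3.76 ± 0.71, from 0.80 at 30 min to -2.96 at 3 h. A few genes named for a strong and steady difference belong to this family. WRKY22 (Solyc10g011910) stood 3.64 above its controls at 30 min and 4.08 at 3 h, and WRKY11 (Solyc08g006320) 1.79 and 2.02. They were picked for a change under 0.5, so steadiness is part of the rule. Their changes had 95% intervals of -0.45 to 1.33 and -0.09 to 0.56. For WRKY22 this does not exclude a change of over 2-fold, and for WRKY11 a small one.

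Calcium signalling genes were higher in 8 and lower in 2 of 22 tested (10 and 1 after rescaling). CML38 (Solyc06g073830), a calmodulin-like protein, was at 289, 554 and 169.8 in 4°C and 98.9, 121 and 54.2 in 24°C at 30 min, and at 1163, 1069.5 and 1096 and 16.3, 19.9 and 28.3 at 3 h. The gap widened by 3.87 ± 0.64 (adjusted p = 3.1e-04). A second CML38 (Solyc11g071740) changed by 3.36 ± 0.62, CML24 (Solyc02g091500) by 2.18 ± 0.23 and ACA2 (Solyc02g064680), a calcium pump, by 2.66 ± 0.57, a call that was lost when the variance moderation was made robust or had no trend. CNGC15 (Solyc09g007840), a cyclic nucleotide-gated channel, was at 4.50, 20.8 and 17.3 at 30 min and 254, 436 and 657 at 3 h in 4°C, with controls of 20.4, 19.9 and 14.1 and 54.3, 37.1 and 50.2, and its change was 3.68 ± 0.77. Against T0 of the same batch, the 4°C arm changed by 4.22 and the 24°C arm by 0.54. CIPK14 (Solyc10g085450), a protein kinase bound by calcium sensors, was lower, at -1.50 ± 0.22.

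In the abscisic acid list, 4 of 14 genes were higher and 2 lower under either scaling, and they included enzymes of both synthesis and breakdown. CYP707A1 (Solyc08g005610), which inactivates abscisic acid, had the second highest change of the named genes. It was at 800.4, 357 and 555 in 4°C and 545, 369.8 and 352 in 24°C at 30 min, where the groups overlapped, and at 7456, 7844 and 9239 and 121, 106 and 152 at 3 h, a change of 5.63 ± 0.37 (adjusted p = 7.9e-09). NCED5 (Solyc08g016720), of the family that makes the first committed step of abscisic acid synthesis, changed by 3.07 ± 0.61, with 3.06 in the 4°C arm and -0.01 in the 24°C arm. NCED3 (Solyc07g056570), of the same family, was apart by 1.78 at 30 min and 2.17 at 3 h, and its change had a 95% interval of -0.19 to 0.97. The receptors went in opposite directions, PYL4 (Solyc10g085310) at 1.59 ± 0.22 and PYR1 (Solyc08g076960) at -1.67 ± 0.22.

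Auxin genes were higher in 5 of 14 and lower in 0 (limma; 6 and 0 after rescaling, and 1 lower at an unadjusted p under 0.05), among them the Aux/IAA repressors IAA4 (Solyc06g053840) at 2.20 ± 0.17 and IAA19 (Solyc03g120380) at 1.98 ± 0.23, and YUC10 (Solyc09g074430), of an auxin synthesis family, at 2.41 ± 0.38. IAA4 and IAA19 were at -0.45 and -0.24 relative to their controls at 30 min. Jasmonate genes had a median difference of 1.51 at 30 min and 1.67 at 3 h, and 2 of 20 were higher and 2 lower (2 and 0 after rescaling). CYP94B1 (Solyc07g006890), which breaks down active jasmonate, changed by 2.74 ± 0.50. OPR2 (Solyc09g098320), of the oxophytodienoate reductase family, is listed at 0 in all 24°C libraries of both times, with 1.11, 3.47 and 2.58 in 4°C at 30 min and 133, 136 and 185 at 3 h. Of 7 gibberellin genes 1 was lower and 0 higher under either scaling (limma), and 0 were higher at an unadjusted p under 0.05. The share called was 14.3%, near the 11.7% of all nuclear genes.

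Genes for the synthesis of cryoprotectants, small molecules that protect cells in the cold, were higher in 3 of 6 cases and lower in 0 under either scaling (limma), also at an unadjusted p under 0.05 for the lower side. SAMDC2 (Solyc02g089610), for the decarboxylase that feeds polyamine synthesis, was at 2550.0, 2932 and 2291 in 4°C and 1582, 1498 and 1498 in 24°C at 30 min. At 3 h it was at 8135, 8024 and 8364 and 738, 750.0 and 645, a change of 2.77 ± 0.17 (adjusted p = 3.8e-09) with -1.79 in the 24°C arm and 0.98 in the 4°C arm. HAD (Solyc04g072920) and TPS7 (Solyc02g072150), which the study lists for trehalose synthesis, changed by 2.62 ± 0.31 and 1.38 ± 0.20. GolS2 (Solyc02g084980), a galactinol synthase, and RS (Solyc02g086530), a raffinose synthase, were not called, at 1.14 ± 0.40 and 0.73 ± 0.62 (adjusted p = 0.045 and 0.42). ADC2 (Solyc01g110440), an arginine decarboxylase, was not called and is listed at 0 in all 3 h 24°C libraries, with 19.9, 19.1 and 15.8 in 4°C.

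ACD32.1 (Solyc07g055720), a small heat shock-like protein with an alpha-crystallin domain, had the lowest value of the named genes. It was at 12.5, 10.4 and 0.658 in 4°C and 9.70, 12.5 and 3.08 in 24°C at 30 min. At 3 h the controls reached 1097, 1119 and 832 while the chilled shoots had 10.6, 23.9 and 11.4, a change of -5.64 ± 1.03 (adjusted p = 7.5e-04). HSFA2 (Solyc08g062960), a heat stress factor that is itself induced by heat, had the same form: controls of 37.8, 25.6 and 62.4 and then 937, 877 and 883, chilled shoots of 14.9, 7.74 and 25.3 and then 34.6, 25.1 and 34.8, and a change of -3.42 ± 0.53. In all, 3 of 13 heat stress factors were lower and 1 higher under either scaling, and 3 of 8 heat shock proteins and co-chaperones were lower and 0 higher (1 and 0 after rescaling, limma), with 1 higher at an unadjusted p under 0.05.

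Other named genes among the lowest were MEE59 (Solyc06g006000) at -3.72 ± 0.44, a zinc finger gene (ZnTF, Solyc12g008660) at -3.29 ± 0.39, NF-YB3 (Solyc12g006120), a subunit of the CCAAT-binding complex, at -2.76 ± 0.37, and EDL3 (Solyc06g084320), an F-box protein, at -2.75 ± 0.29. For MEE59 the controls went from 53.3, 53.9 and 93.6 to 1851, 1670.5 and 1753, whereas EDL3 in the cold went from 146, 216 and 210.2 to 37.8, 22.3 and 37.6. WOX4 (Solyc04g078650), a homeobox gene of the vascular cambium, in the cold went from 263, 241 and 268 to 81.5, 81.7 and 78.2, with a change of -2.23 ± 0.17. It was 1 of 4 lower genes among 24 homeobox genes (2 lower and 1 higher after rescaling). Of those 24 genes 16.7% were called, against 11.7% of all nuclear genes. Among genes without a name, Solyc04g009790 had -5.17 ± 0.62 and Solyc00g136260 -4.39 ± 0.50, and Solyc03g042560 and Solyc04g007620 had 5.23 ± 1.00 and 4.97 ± 0.68.

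In a small set of genes the cold difference turned round. LBD37 (Solyc01g107190), a LOB domain factor that represses nitrogen responses in Arabidopsis, was at 977, 827 and 1057 in 4°C and 238, 318 and 232 in 24°C at 30 min. At 3 h it was at 248, 250.3 and 446 in 4°C and 508, 582 and 548 in 24°C, so that the chilled shoots lay above their controls at the early time and below them at the late one, without overlap at either. The change was -2.71 ± 0.25 (adjusted p = 3.9e-07). MYB4 (Solyc06g065100), a repressor of phenylpropanoid genes in Arabidopsis, went from 0.92 to -2.02, DEAR2 (Solyc04g078640), a DREB-type factor with a repressor motif, from 0.82 to -1.85, TMO6 (Solyc11g072500), a Dof factor, from 0.71 to -1.96, and PUP10 (Solyc02g071100), named as a purine permease, from 0.71 to -0.99.

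GA3OX1 (Solyc03g119910), which makes active gibberellin, did the same: it was at 156, 174 and 260.4 in 4°C and 99.9, 60.3 and 95.6 in 24°C at 30 min, and at 49.9, 59.6 and 75.2 and 164, 115 and 181 at 3 h. The opposite turn was seen in SLAH3 (Solyc03g007770), a slow anion channel of guard cells and other tissues, which was at 638, 716 and 1005 in 4°C and 1869.5, 1716 and 1721 in 24°C at 30 min and at 1493, 1789.8 and 1768 and 745, 786 and 712 at 3 h, a change of 2.36 ± 0.22 (adjusted p = 4.3e-07). MAPKKK21 (Solyc02g090980), a kinase, went from -0.75 to 1.62 and IDD7 (Solyc03g121660), a zinc finger gene, from -0.73 to 0.59. Of the 6 LOB domain genes tested, 4 were lower and 1 higher, or 2 and 1 after rescaling. The lower call of LBD38 (Solyc04g077990) was lost on leaving out any 1 of the 12 treated libraries, at adjusted p (limma) from 0.0103 to 0.0303. That of LBD4 (Solyc11g045530) was lost on leaving out any 1 of 10 of them, at adjusted p (limma) from 0.0103 to 0.0202.

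In the other families of transcription factors the calls went in both directions. Over all nuclear genes tested, 3.91% were higher and 7.79% lower without rescaling. Of 46 MYB genes outside the clock and MYB15 lists 3 were higher and 6 lower, or 7 and 4 after rescaling, and MYB94 (Solyc02g087960), a regulator of wax synthesis in Arabidopsis, changed by 2.81 ± 0.21 and MYB77 (Solyc04g079360) by 3.21 ± 0.52. GRAS genes had 5 higher and 2 lower of 20 (7 and 0 after rescaling), with GRAS2 (Solyc06g082530) at 1.49 ± 0.25. NAC genes had 2 in each direction of 19 (2 higher and 1 lower after rescaling), with ANAC002 (Solyc06g060230) at 1.63 ± 0.20 and NAC083 (Solyc03g097650) at -2.22 ± 0.29. Another gene named ANAC002 (Solyc11g017470) was not called, at 0.22 ± 0.38. The bHLH list had 2 in each direction of 17 (3 higher and 1 lower after rescaling), and the bZIP list 3 higher and 1 lower of 15 (5 and 1).

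Ubiquitin ligases, which mark proteins for breakdown, were higher in 4 and lower in 1 of 10 under either scaling. PUB22 (Solyc01g007020) changed by 2.13 ± 0.37 and ATL8 (Solyc03g032060) by -2.12 ± 0.40. Of 3 genes of ethylene synthesis 2 were higher and 0 lower under either scaling (limma), with 0 lower at an unadjusted p under 0.05, and ACO4 (Solyc02g081190), of the family that makes the last step, changed by 1.14 ± 0.12.

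Across the 24 lists, the share of tested members that was called ran from 14.3% of 7 gibberellin genes to 83.3% of 6 LOB domain genes, against 11.7% of all nuclear genes. Genes with high values were called more often, from 4.28% among the 25% of genes with the lowest mean value to 19.6% among the 25% with the highest. The lists were put together from gene names and annotations in the paper's text and tables, with earlier results of these data known. Those tables include genes that the paper found to respond to cold in these same libraries. The lists are thus not independent of the data, and a share or median apart from that of all genes is no evidence about a list. The lists nearest to the share of all genes were gibberellin, homeobox (16.7%) and other MYB genes (19.6%).

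**Figure D5:**
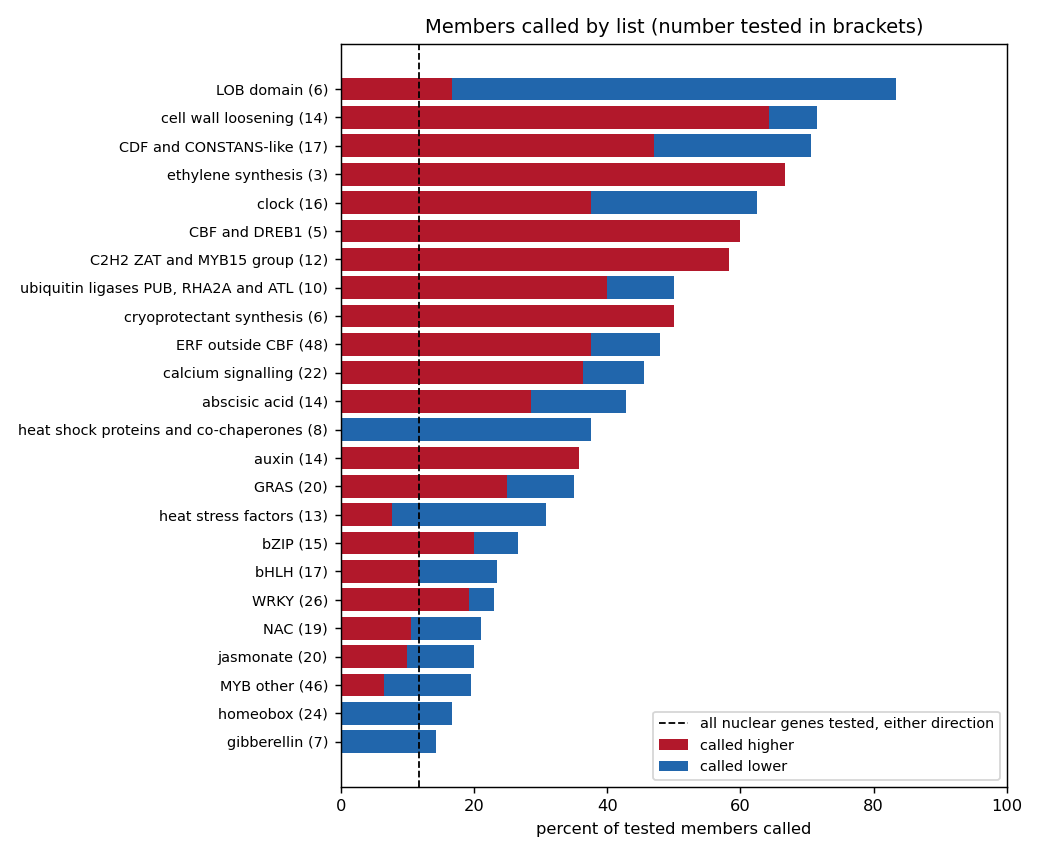
Percent of tested members of each list that were called higher (red) or lower (blue), with the number tested in brackets and a dashed line at 11.7%, the share of all nuclear genes called in either direction. The lists come from the paper's text and tables on these same data, so the line is not an independent background. Cell wall, CBF and zinc finger lists are red almost throughout, and heat shock and homeobox lists are blue; after rescaling the heat shock list has 1 lower and 0 higher and the homeobox list 2 lower and 1 higher.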

How the data were processed

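RNA-seq of tomato shoots was analysed from the deposited table of 18 shoot libraries, of which the 12 from 30 min and 3 h enter the contrast and the 6 from T0 help to estimate the spread. Per the paper's methods, the authors aligned reads with BBMap to the ITAG tomato assembly plus both organelle genomes, tallied them per gene with featureCounts and normalized the counts in edgeR by TMM (trimmed mean of M values). The submitters' notes name Subread, featureCounts and edgeR, and their versions are not given in the sources used here. The deposited values are a normalized signal, called normalized counts here. They are not whole numbers and sum to between 20328938 and 20332140 in every shoot library, so the values themselves hold no depth and no counting error can be given. Whether the TMM factors are part of values with such even totals was not tested. The sequencing depth that the paper states was not used here. Group and batch came from the labels and the paper, and 0 columns of values were left unused.

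Features with at least 10 in at least 3 libraries were kept, 1 was added, and a linear model was fitted to the log2 values (limma 3.58.1, R 4.3.3) with 6 groups (T0 split by batch) and moderation with a trend. A two-sided moderated test of the contrast was adjusted by Benjamini-Hochberg over all 20535 features, and genes were called under 0.01. This replaces the count test of the paper, which needs counts. Differences at a single time, arms and list counts carry no test, and intervals are 95% intervals from limma.

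Named genes are the 12 highest and 12 lowest called genes that have a name and a mean of at least 100 in a treated group, up to 6 in each direction that changed sign by at least 1.5-fold, 6 with a strong difference that changed by under 0.5, members of the clock, CBF, cryoprotectant and CDF lists, called members and up to 4 others of each other list, and 2 unnamed IDs in each direction. Not all of them are described. The contrast, the lists and the members were chosen with earlier results of these data known. Names come from the paper's text and tables and cover 767 of the tested nuclear genes, and many are of Arabidopsis matches. Alternatives were tried for the filter, the pseudocount, the scaling (median ratios), the libraries in the fit, moderation, the threshold, a replicate block and leaving out each library. Sequences, promoter motifs and families by symbol were not analysed here, including the nuclear shoot markers that were to check the organ.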

Additional observations from a re-analysis of the deposited data

Results flagged for a closer look

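The cold difference itself differed between the times in 2382 nuclear genes (796 higher and 1586 lower) by the test of that difference in limma. Among named genes whose cold difference was at least 1.5-fold in opposite directions at 30 min and 3 h, the change was -2.93 for MYB4 (Solyc06g065100), -2.71 for LBD37, -2.67 for DEAR2, -2.67 for TMO6, -2.49 for GA3OX1 and -1.70 for PUP10. In the other direction it was 1.32 for IDD7, 1.91 for CRF4 (Solyc06g051840), 2.36 for SLAH3 and 2.36 for MAPKKK21. CRF4, a cytokinin response factor, was at 24.5, 45.1 and 21.3 in 4°C and 60.1, 36.0 and 39.5 in 24°C at 30 min and at 118, 142 and 115 and 37.1, 58.4 and 55.9 at 3 h, and the groups overlapped at the early time. Its call was lost without 30 min 24°C replicate 1, 30 min 4°C replicate 1 or 3, 3 h 24°C replicate 1 or 3, or any 3 h 4°C replicate, at adjusted p (limma) from 0.0102 to 0.0194.

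Plastid transcripts lie outside the nuclear genes of the report. In chilled shoots they made up 4.96% of the values after 30 min and 6.74% after 3 h, above 0.423% and 0.284% in the controls. The T0 libraries of the same batches had 2.18% and 0.503%. Of 134 plastid features tested, 27 were called by the same contrast, 25 higher and 2 lower, with a median change of 0.77 on a median difference of 4.99 at 30 min.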

How the results depend on the processing

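The balance of higher and lower calls moved most with the scaling, and the total fell most with T0 as 1 group. With libraries rescaled on the median ratio of nuclear genes, 1226 genes were higher and 697 lower, and on that of all features 1220 and 700. Replicate numbers showed no clear pairing over all nuclear genes: deviations of same-numbered 4°C and 24°C libraries correlated at 0.000934, 0.123 and 0.0231 at 30 min and at -0.00287, -0.0208 and -0.0202 at 3 h. Differently numbered pairs ran from -0.128 to 0.118 at 30 min. Pairing in single genes was not tested. With the replicate number as a block 2283 genes were called, and with the block and rescaling over nuclear genes together 1357 were higher and 651 lower. With T0 as 1 group, an alternative chosen after seeing the data that puts the difference between the T0 batches into the spread, 1156 genes were called, 505 higher and 651 lower. At an adjusted p under 0.05 there were 4638, 1329 and 3309. Leaving out 1 library gave 1698 to 3096 calls, 634 to 834 higher and 1039 to 2262 lower, the fewest lower without 3 h 4°C replicate 1 and the most without 30 min 4°C replicate 2. A pseudocount of 0.5 or 5, other filters, the 12 treated libraries alone, robust or untrended moderation and a fit of nuclear genes alone gave 1918 to 2435 calls. No gene called in the report changed sign under any of these settings. Of genes named above and not called, COL4 went from -0.03 to 0.17 under each of the 3 rescalings, and leaving out 1 library moved it between -0.15 and 0.049 and PRR5 between -0.18 and 0.47. RAP2.4 (Solyc04g072900), RVE7, ELF3, CRF4 and RRTF1 were not called with T0 as 1 group, and ACA2, RVE7, CRF4 and RRTF1 not without a trend. CBF1, CBF2 and RRTF1 were not called with a pseudocount of 5, and ACA2 and RRTF1 not with robust moderation. The causes were not tested. Whole reads could not be recovered, so no count test was run.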
